A study of Microtus ochrogaster with 40 samples.

Results

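The nuclei described here are D1 medium spiny neurons of the nucleus accumbens in which transcripts of Pdyn, the gene for prodynorphin, were counted. A nucleus was taken when it held at least 1 UMI (a counted RNA molecule) of DRD1A, the D1 dopamine receptor gene, at least 1 UMI of Pdyn, and 0 UMIs of each of DRD2, Adora2a, Gpr6, Drd3, Otof and Slc17a7. The rule found 12852 such nuclei, called Pdyn D1 nuclei below, among the 185995 nuclei with at least 500 UMIs and at most 5% mitochondrial UMIs, which is 6.91%. They made up 45.2% of the 28427 D1 nuclei, meaning those with DRD1A and none of the 6 excluded genes. The other 15575 D1 nuclei had 0 Pdyn UMIs and serve as the nearest comparison, with 15029 D2 nuclei (DRD2 present, DRD1A, Drd3, Otof and Slc17a7 absent) as the second.

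Medium spiny neurons are the GABAergic projection neurons of the striatum. Those with the D1 receptor form the direct pathway and make substance P and dynorphin, while those with the D2 receptor form the indirect pathway and make enkephalin. Dynorphin is cut from prodynorphin, packed in dense-core vesicles and released onto the kappa opioid receptor, which lowers dopamine release and is known for its part in aversive states, including in pair-bonding voles.

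The nuclei came from 40 prairie voles (Microtus ochrogaster), 1 single-nucleus RNA-seq library per animal. Animals of both sexes were housed for 16 days in a pair, either of opposite sex (mate) or of the same sex (peer). No drug or transgene is named in the labels. There were 11 female mates, 8 female peers, 11 male mates and 10 male peers, and the comparisons ask whether partner type and sex go with differences in these nuclei.

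Pdyn D1 nuclei were present in every library, from 73 in male peer 1 to 657 in female mate 4, and their summed depth ran from 69521 UMIs in male mate 2 to 1433920 in female mate 4. Male mate 2 stood apart as the shallowest library, with a median of 662 UMIs per kept nucleus against a median of 1623 over the libraries, and female peer 1 (935 UMIs) was the next. Slc17a7, the cortical glutamate transporter gene among the excluded ones, was counted in 0.667% of kept nuclei in male peer 5 and in 9.80% to 37.3% in the other libraries, so the nuclei it removed differed between libraries. Some results are also given without male mate 2, female peer 1 or male peer 1, and none is given without male peer 5. Doublets were kept. The number of doublets to call was set in advance by a rate assumed from the number of barcodes, and the highest doublet scores were called. These calls took in 420 Pdyn D1 nuclei (3.27%) and 8004 of all kept nuclei (4.30%). The 4.30% thus follows from the assumed rate, and the true share of doublets was not measured in either set. Of the Pdyn D1 nuclei, 237 (1.84%) carried a barcode that also marked a Pdyn D1 nucleus in another library.

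The label was checked against marker genes that the rule did not use. Of the Pdyn D1 nuclei, 99.3% held at least 3 of 13 markers shared by both kinds of spiny neuron, such as Ppp1r1b and Pde10a. So did 93.2% of D1 nuclei without Pdyn and 96.3% of D2 nuclei. The 13 include the GABA genes Gad1, Gad2 and Slc32a1, so this share does not tell spiny neurons from GABAergic interneurons. Tac1, the substance P precursor and a marker of the direct pathway, ranged from 1255 to 3030 CPM (UMIs of the gene scaled to a common total per animal) over the animals in Pdyn D1 nuclei, with a median of 2032, and from 82.5 to 983 with a median of 229 in D2 nuclei. The groups did not overlap. Of the 9 direct-pathway markers outside the rule, Tac1, Isl1, Ebf1, Sfxn1, Slc35d3, Chrm4 and Reln were higher in Pdyn D1 than in D2 nuclei in at least 39 of 40 animals and Dlk1 in 36. Eya1 was higher in 16 animals only, with medians of 1.48 and 2.27 CPM. These markers, other than Eya1, go with the label given to the nuclei. Markers of other cells were low and not at 0. The summed level of 8 astrocyte markers was 266 to 906 CPM, with a median of 447, against 2406 CPM over all kept nuclei. At least 3 markers of a glial, vascular or glutamate neuron list were held by 589 Pdyn D1 nuclei (4.58%).

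Some glia-marked nuclei also met the rule. Such nuclei held at least 3 markers of 1 glial type and under 3 of each other glial, vascular or glutamate neuron list. Spiny neuron and interneuron markers were not used to leave nuclei out, so these sets can hold neurons. At least 3 astrocyte markers were held by 377 Pdyn D1 nuclei and 626 D2 nuclei. The Pdyn D1 rule was met by 1.43% of 24400 astrocyte-marked nuclei (median 807 UMIs). It was met by 0.918% of 13614 oligodendrocyte-marked nuclei (median 691 UMIs) and 1.05% of 4966 microglia-marked nuclei (median 620 UMIs). Pdyn D1 nuclei had a median of 2242 UMIs, so these shares stand at lower depths. At 1000 UMIs each the shares were 1.46%, 0.918% and 1.96%. Whether free RNA or doublets gave these counts was not tested. In D2 nuclei, with a median of 2112 UMIs, 2.77% held a Pdyn UMI.

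Most members sat close to the rule's threshold. Pdyn was seen as 1 UMI in 5996 nuclei (46.7%), as 2 in 2978, as 3 in 1664, as 4 to 9 in 2038 and as 10 or more in 176, with a maximum of 34. The 2022 nuclei with exactly 1 UMI of DRD1A and 1 of Pdyn held Tac1 in 72.8%, Reln in 46.3%, Dlk1 in 5.29% and Penk in 22.2%. Just outside, the 7458 nuclei with 1 DRD1A UMI and 0 Pdyn UMIs held Tac1 in 52.0%, Reln in 24.7%, Dlk1 in 2.78% and Penk in 30.8%. The 2772 nuclei with 0 DRD1A UMIs and 1 Pdyn UMI held them in 46.0%, 27.2%, 5.12% and 21.2%, so for Dlk1 and Penk these were close to the nuclei with 1 UMI of each gene. The 5045 nuclei with at least 2 UMIs of both genes held Tac1 in 93.0%, Reln in 74.0%, Dlk1 in 8.19% and Penk in 16.9%. The median depths of these 4 sets were 1748, 1509, 1331 and 2585 UMIs. Of 19747 nuclei with both DRD1A and Pdyn, 4423 were left out for a single UMI of a single excluded gene. Gpr6 was the most frequent of these genes, in 2875 nuclei, and DRD2 the least, in 612. The 2472 nuclei with 2 or more such UMIs held Penk in 49.7%.

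What Pdyn D1 nuclei express is given next, by role, against D1 nuclei without Pdyn. Since the nuclei were chosen by their counts, these contrasts are a description with no test. Levels are CPM summed per animal, and a ratio is the median over 40 animals of (CPM + 1) in one kind of nucleus over the other. Of 5240 genes at 50 CPM or more in either kind, 295 (5.63%) were higher in Pdyn D1 nuclei in at least 90% of animals and 225 (4.29%) were lower. With a ratio of at least 1.5 as well, 26 genes (0.496%) were higher, and 92 (1.76%) were at or below its inverse. The median ratio over all 5240 genes was 0.990. A gene at 50 CPM in 1 kind only entered through the kind where it was higher, which favours genes that differ.

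The Pdyn requirement also picks deeper nuclei, with medians of 2242 and 1782 UMIs, so every ratio was also taken after each nucleus was reduced at random to 1000 UMIs before the rule was applied. The rule then took 7192 Pdyn D1 nuclei, only 9 of them in male mate 2, and 51 genes passed both limits, in place of 118. These nuclei are not a subset of the 12852, since nuclei that lost all UMIs of the 6 excluded genes could enter. With both DRD1A and Pdyn counted at that depth, 7192 of 8567 nuclei met the rule, against 12852 of 19747 before. Nuclei that lost all their Pdyn UMIs in the reduction moved to the D1 nuclei without Pdyn. The latter numbered 15581, against 15575 before, while all D1 nuclei fell from 28427 to 22773. The ratios at 1000 UMIs thus hold these moves of nuclei as well as the change in depth, and their parts were not tested.

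The peptide genes divided. Tac1 had a median of 1307 CPM in D1 nuclei without Pdyn and was higher in Pdyn D1 nuclei in 40 of 40 animals, by 1.54-fold. Penk, the enkephalin precursor, had 49.5 to 1901 CPM in Pdyn D1 nuclei with a median of 284, against a median of 723 in D1 nuclei without Pdyn and 5313 in D2 nuclei. It was lower than in the other D1 nuclei in 40 of 40 animals, with a ratio of 0.405. At 1000 UMIs each, 11.9% of Pdyn D1 nuclei held a Penk UMI, so this share does not stand above the 19.9% of astrocyte-marked nuclei. Spiny neurons were not removed from the astrocyte-marked nuclei, and the source of their Penk UMIs was not tested. Tac1 stood above the astrocyte-marked nuclei at the same depth. It was counted in 75.1% of Pdyn D1, 63.6% of other D1, 13.9% of D2 and 12.8% of astrocyte-marked nuclei. Cartpt, the precursor of the CART peptides, had 43.7 to 297 CPM with a median of 147, and was 2.66-fold higher than in the other D1 nuclei in 40 of 40 animals. Its level in D2 nuclei was higher still, with a median of 183 CPM. Cck, for cholecystokinin, stood at 0.283 of its level in the other D1 nuclei and was above it in 3 animals. At 1000 UMIs its ratio was 0.495, with 7 animals above. The share of nuclei with a Cck UMI was then 4.02% in Pdyn D1 and 4.20% in the other D1 nuclei. Pooled over animals, Cck had 38.9 CPM in Pdyn D1 and 144 in the other D1 nuclei. It had 138, 143 and 161 CPM in astrocyte-, oligodendrocyte- and microglia-marked nuclei, so neither kind of D1 nucleus stood clearly above these.

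**Figure D1:**
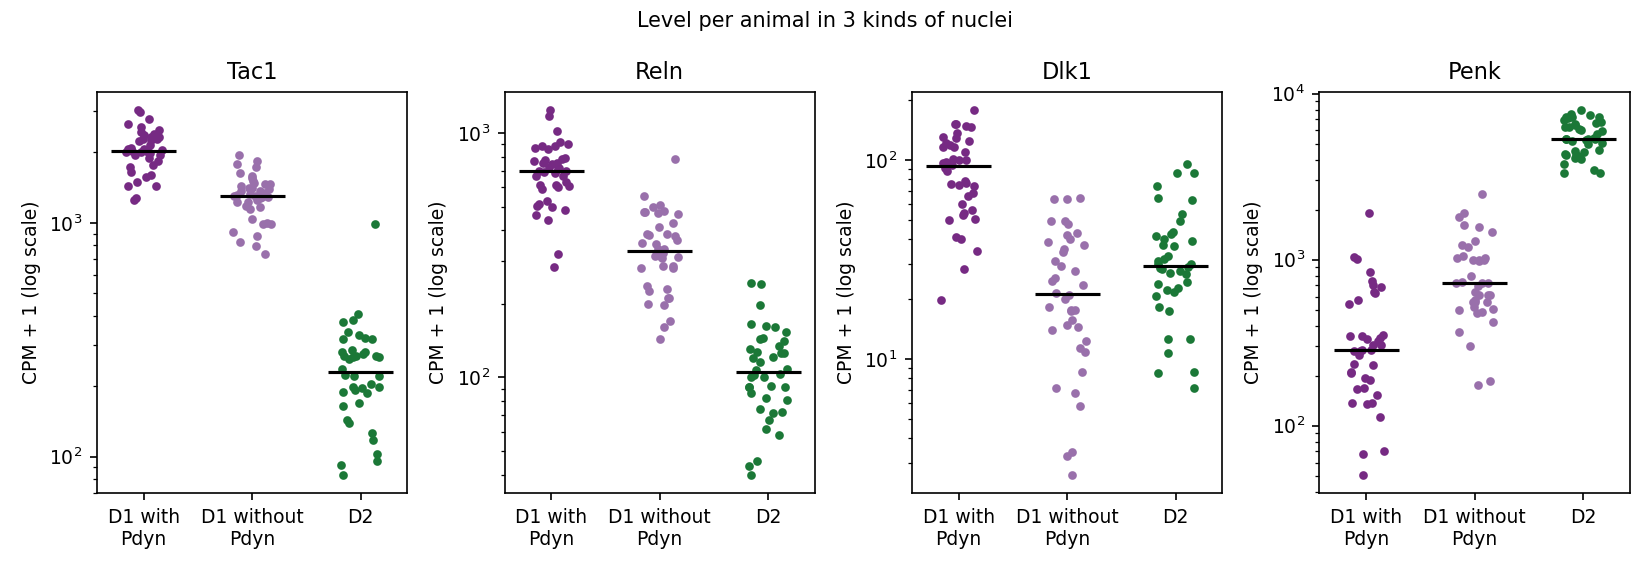
Level of Tac1, Reln, Dlk1 and Penk per animal (CPM + 1, log scale) in D1 nuclei with Pdyn, D1 nuclei without Pdyn and D2 nuclei; each point is 1 of 40 animals and the line is the median. Median Reln falls from 697 CPM in the first kind to 327 and 104 in the others, and the Penk points run the other way, from a median of 284 to 723 and 5313.

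Of the opioid receptors, Oprk1, the kappa receptor on which dynorphin acts, had 148 to 298 CPM in Pdyn D1 nuclei with a median of 223, and 174 in the other D1 nuclei. It was 1.22-fold higher in 36 of 40 animals, and 1.10-fold after reduction to 1000 UMIs. Oprm1, the mu receptor, had a median of 174 CPM and was higher in 28 animals. Oprd1, the delta receptor, had a median of 2.04 CPM and was lower than in D2 nuclei in 40 of 40 animals. Oprk1 was counted in 19.0% of Pdyn D1 nuclei at 1000 UMIs each, against 17.5% of other D1 and 12.9% of D2 nuclei.

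The genes that cut and pack peptides did not move as 1 group. Of 11 at 50 CPM or more, 2 were higher and 3 lower in at least 90% of animals, and their median ratio was 0.884. Scg2, secretogranin, a structural protein of dense-core vesicles, had 907 to 2308 CPM with a median of 1497 and was 1.45-fold higher in 40 of 40 animals. Chgb, a granin of the same vesicles, was 1.20-fold higher in 36 animals. Pcsk1, a proprotein convertase, had a median of 47.5 CPM against 126 and was lower in 40 of 40 animals, with a ratio of 0.403. Pcsk2, a convertase that cuts prodynorphin, had a median of 365 CPM and a ratio of 0.810, and was higher in 5 animals.

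Part of the signalling chain from the D1 receptor to cAMP was higher than in the other D1 nuclei. Of 14 of its genes at 50 CPM or more outside the rule, 7 were higher and 0 lower in at least 90% of animals, with a median ratio of 1.14, or 1.06 at 1000 UMIs. Gnb1 (0.981), Pde4b (0.973) and Prkaca (0.981) stood near their level in the other D1 nuclei. Ppp1r1b, for DARPP-32, which dopamine and glutamate signals regulate, had a median of 1641 CPM and a ratio of 1.43, which became 1.16 at 1000 UMIs. Ptpn5, for the striatal phosphatase STEP, stood at 1.30 in 40 of 40 animals and at 1.24 at that depth. Adcy5, the main striatal adenylyl cyclase, and Gnal, the G protein that couples the receptor to it, stood at 1.19 and 1.17 in 40 of 40 animals. Pde1c, a phosphodiesterase, had only 11.1 to 71.9 CPM and was 2.55-fold higher in 40 of 40 animals. Several of these genes stood in D2 nuclei near their level in Pdyn D1 nuclei. Pooled over animals, Ppp1r1b had 1680 CPM in Pdyn D1 and 1587 in D2 nuclei, Gnal 1634 and 1616, and Ptpn5 1459 and 1333. Adcy5 (2181 and 1804 CPM) and Pde1c (30.0 and 17.4 CPM) were lower in D2 nuclei.

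Immediate early genes, which neurons switch on within minutes of strong activity, were among the genes that stood highest. Of 8 at 50 CPM or more, 5 were higher and 0 lower in at least 90% of animals, with a median ratio of 1.64 and, at 1000 UMIs, 1.48. Of the 2 kinds of D1 nuclei, Fosl2, Nr4a1 and Nr4a3 reached 50 CPM only in Pdyn D1 nuclei. Their medians were 50.4, 80.7 and 56.0 CPM there, against 24.3, 43.0 and 27.3. These genes entered through the difference being counted, so this count and median ratio give no support of their own. Npas4, an activity-dependent transcription factor, had 84.1 to 449 CPM with a median of 213, against a median of 104 in the other D1 nuclei and 150 in D2 nuclei. Its ratio was 1.89 in 38 animals. Fosl2 stood at 1.83, Nr4a1 at 1.78 and Nr4a3 at 1.76, each higher in 39 animals. At 1000 UMIs these were higher in 35, 33 and 32 animals, under the 90% limit. Arc, a synaptic immediate early gene, had a ratio of 1.51 but was higher in 33 animals only. Summed over 16 genes, the list had a median of 1147 CPM in Pdyn D1 nuclei, 737 in the other D1 nuclei and 1036 in D2 nuclei.

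**Figure D2:**
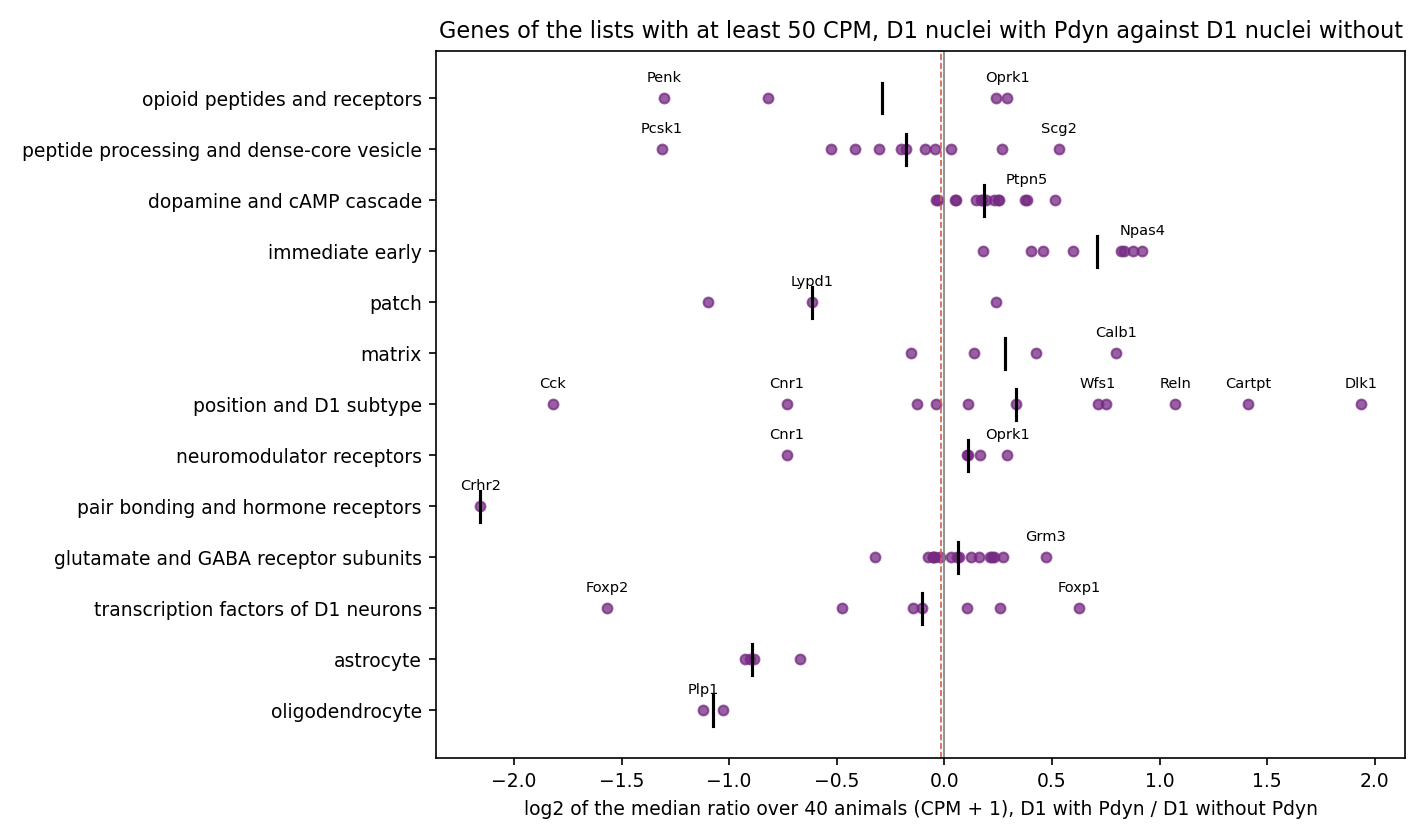
Each point is a gene of the named list at 50 CPM or more: the log2 of its median ratio over 40 animals, D1 nuclei with Pdyn over D1 nuclei without, with the list median as a black bar, no change in grey and the median of all 5240 genes as a dashed red line. The immediate early genes lie to the right around a ratio of 1.64, astrocyte and oligodendrocyte markers lie to the left, and the position list spreads from Cck at 0.283 to Dlk1 at 3.82.

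Genes that mark positions or subtypes of D1 neurons had ratios from 0.283 for Cck to 3.82 for Dlk1. Dlk1, an imprinted gene for a membrane protein of the Delta family, had 18.7 to 176 CPM in Pdyn D1 nuclei with a median of 91.8, against a median of 20.2 in the other D1 nuclei and 28.4 in D2 nuclei. It was 3.82-fold higher in 39 of 40 animals, and the ratio ran from 0.914 to 46.4. It was counted in few nuclei, 6.42% of Pdyn D1 nuclei at 1000 UMIs each, against 1.91% of other D1 and 1.08% of astrocyte-marked nuclei. Reln, for the extracellular protein reelin, had 282 to 1238 CPM and was 2.11-fold higher in 40 of 40 animals. At 1000 UMIs each it was counted in 45.8% of Pdyn D1, 27.4% of other D1, 9.18% of D2 and 6.00% of astrocyte-marked nuclei. Wfs1, for wolframin of the endoplasmic reticulum, had a median of 1062 CPM and a ratio of 1.64 in 40 of 40 animals, which became 1.47 in 39 at 1000 UMIs. Peg10, an imprinted gene that derives from a retrotransposon, stood at 1.68 in 38 animals, and at 1.59 in 34 at 1000 UMIs, under the 90% limit. Cnr1, the cannabinoid receptor gene, was lower, with a ratio of 0.602 that became 0.857 at 1000 UMIs.

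The striatum is divided into matrix and patch compartments, and of 4 matrix genes at 50 CPM or more 2 were higher and 0 lower in at least 90% of animals. Calb1, for calbindin and the classical marker of the matrix, had 163 to 622 CPM with a median of 366 and was 1.74-fold higher than in D1 nuclei without Pdyn in 40 of 40 animals. Its median in D2 nuclei was 346 CPM, and it was higher in Pdyn D1 nuclei in 21 animals only. Rasgrp2 was 1.34-fold higher in 38 animals, with pooled levels of 143 CPM in Pdyn D1, 111 in the other D1 and 161 in D2 nuclei. Epha4 stood at 1.10 in 30 animals and at 0.966 at 1000 UMIs, and Sgk1 at 0.899, higher in 15 animals. Of 3 patch genes at 50 CPM or more, Lypd1 stood at 0.652, lower in 40 of 40 animals, and Sema5b at 0.467, higher in 1 animal. Oprm1, the remaining one, was 1.18-fold higher. Bach2 of the patch list was not used here.

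Transcription factors of spiny neurons also divided. Foxp1 was 1.54-fold higher in 40 of 40 animals, and 1.24-fold at 1000 UMIs. Pooled over animals, it had 273 CPM in Pdyn D1, 184 in the other D1 and 323 in D2 nuclei. Foxp2, which is shared by D1 neurons and eccentric spiny neurons, had 25.9 to 251 CPM with a median of 66.3 against 212, and was lower in 40 of 40 animals with a ratio of 0.338. Mef2c stood at 0.719, also lower in 40 of 40 animals. Sp9, a factor of the indirect pathway, had a median of 9.64 CPM against 48.2 in the other D1 nuclei and 91.8 in D2 nuclei.

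Receptor genes mostly stood near their level in the other D1 nuclei. Of 16 glutamate and GABA receptor subunits at 50 CPM or more, 5 were higher and 1 lower in at least 90% of animals, with a median ratio of 1.05. Grm3, a metabotropic glutamate receptor, was 1.39-fold and Grm5 1.21-fold higher in 40 of 40 animals, and Grin2a, an NMDA receptor subunit, stood at 0.799. Pooled levels in D2 nuclei were 162 CPM for Grm3 and 427 for Grm5, against 172 and 436 in Pdyn D1 nuclei. Crhr2, a receptor for urocortins that has been studied in vole pair bonding, was the lowest of the receptors at 50 CPM or more. It had 0 to 58.3 CPM with a median of 16.4, against 69.1 in the other D1 nuclei and 54.5 in D2 nuclei, and it was lower than in the other D1 nuclei in 40 of 40 animals. OXTR, the oxytocin receptor, was sparse, with 0 to 37.1 CPM and a median of 5.17, against 3.48 and 5.14. The progesterone receptor gene Pgr had a median of 29.4 CPM and the mineralocorticoid receptor gene Nr3c2 27.9 CPM. Esr1 and Esr2 had medians of 0 CPM, and UCN3 had 0 UMIs in both kinds of D1 nuclei.

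Beyond the lists, the genes of highest ratio were Tamalin (1.71), Syt10 (1.70), Nptx2 (1.67), Jcad (1.65) and Tpd52l1 (1.62), each higher in at least 39 animals. At 1000 UMIs Nptx2 stood at 1.34 in 31 animals, Jcad at 1.41 in 35 and Tpd52l1 at 1.28 in 36, so these 3 no longer passed both limits. Syt10, a synaptotagmin, was lower than in D2 nuclei in 40 of 40 animals. The genes of lowest ratio were Kcnc2 (0.139), a fast potassium channel known from interneurons, ENSMOCG00000011852 (0.181), Pcdh8 (0.193), Crhr2 (0.224), Ppm1e (0.237), Elavl4 (0.255), Nos1 (0.266), Cck (0.283), Atp2b4 (0.288) and ENSMOCG00000014414 (0.296). At 1000 UMIs, Nos1 had a ratio of 0.272 but was above the other D1 nuclei in 6 animals, so it did not pass the 90% limit. Kcnc2 had 0 to 26.2 CPM in Pdyn D1 nuclei, 19.0 to 320 in the other D1 nuclei and 0 to 38.0 in D2 nuclei. Against D2 nuclei the ratio was 0.942 for Kcnc2, 1.25 for Pcdh8, 1.07 for Ppm1e, 1.66 for Nos1 and 1.30 for Cck. A low level of these genes was thus shared with D2 nuclei. The remaining genes of lowest ratio stood below D2 nuclei too, from 0.309 for Crhr2 to 0.680 for Atp2b4.

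Markers of other cells moved with these ratios. All 4 astrocyte markers at 50 CPM or more were lower in Pdyn D1 nuclei in at least 90% of animals (median ratio 0.538), as were both such oligodendrocyte markers (0.475). The 10 interneuron markers summed to 18.6 to 1050 CPM in Pdyn D1 nuclei, with a median of 344, and to 208 to 3749 with a median of 895 in the other D1 nuclei. At least 3 interneuron markers were held by 0.739% of Pdyn D1 nuclei and 2.43% of the others. Their part in the lower genes was not tested gene by gene. With nuclei that hold 3 or more markers of a glial, vascular or glutamate neuron list left out, 111 genes passed both limits, in place of 118. Nuclei with interneuron markers were kept in this alternative, so it does not bear on them.

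Nuclei that met the rule at 1000 UMIs also differed among themselves. In the 7192 nuclei reduced to 1000 UMIs each, nuclei in which 2 genes were both counted were set against the number expected from each gene's share within each animal. This is a description of the same nuclei, with no test. Dlk1 and Peg10 were seen together in 80 nuclei where 26.3 were expected, a ratio of 3.04 that was above 1 in 28 animals. Dlk1 was also seen more often than expected with Oprm1 (1.72), Cartpt (1.63) and Wfs1 (1.33, above expectation in 39 animals). Penk was seen more often than expected with Foxp2, in 144 nuclei where 60.2 were expected (2.39), and with Tshz1 (2.74). Both are on the eccentric spiny neuron list, of which 72 unreduced Pdyn D1 nuclei (0.560%) held at least 3 markers. The 7192 can include nuclei that lost UMIs of excluded genes such as Otof. Before the reduction, nuclei with 1 such UMI held Penk in 25.1% and those with more in 49.7%, against 18.8% of Pdyn D1 nuclei. The part of these nuclei in the pairs was not tested. The share of nuclei with Penk was below that of astrocyte-marked nuclei, and its UMIs were not spread evenly over the Pdyn D1 nuclei. Some pairs stood low. Dlk1 and Foxp2 were counted together in 8 nuclei where 30.7 were expected, Dlk1 and Penk in 22 where 55.8 were expected, and Reln and Penk in 244 where 385 were expected, above expectation in 1 animal. Oprm1 joined both sides, standing above expectation with Dlk1 and also with Foxp2 (1.41, 29 animals), Tshz1 (1.49, 21 animals) and Penk (1.17, 27 animals), and Penk with Peg10 stood at 1.19. Col24a1 and Htr4 were seen together in 93 nuclei where 61.8 were expected, while Col24a1 stood low with Foxp2 (0.439) and Htr4 with Oprm1 (0.535).

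**Figure D3:**
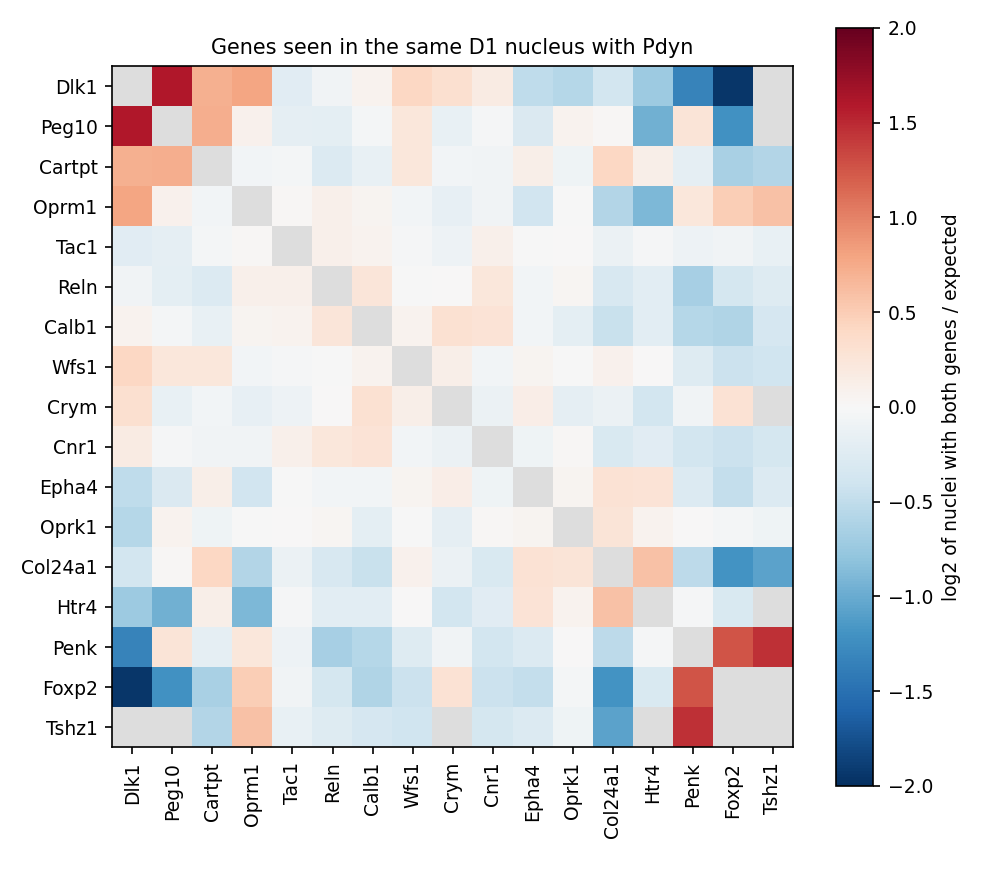
Pairs of genes counted in the same D1 nucleus with Pdyn at 1000 UMIs: log2 of the number of nuclei with both over the number expected from each gene's share within animals, red for more and blue for fewer, grey where under 20 nuclei were expected. A red block of Dlk1 and Peg10 (3.04) lies at the upper left and one of Penk, Foxp2 and Tshz1 (2.39 and 2.74) at the lower right, with Dlk1 against Penk (0.394) and Foxp2 (0.261) in blue.

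Levels also followed the number of Pdyn UMIs. Among the nuclei reduced to 1000 UMIs, 4767 held 1, 1570 held 2 and 855 held 3 or more. Tac1 had 2009, 2485 and 3651 CPM in these, Reln 668, 900 and 1080, and Dlk1 95.4, 159 and 280. Of the immediate early genes, Nr4a3 had 53.9, 80.3 and 179 CPM, Arc 216, 310 and 537, and Npas4 211, 304 and 497. The list did not follow this order throughout, as Homer1 had 26.6, 30.6 and 30.4 CPM, Nr4a2 3.99, 3.82 and 3.51, and Ier2 under 1 CPM in each. Penk went the other way, from 515 to 409 and 138 CPM, and Foxp2 from 89.6 to 63.7 and 38.6. The steps above are pooled over animals and carry no test.

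Sst, Npy, Amhr2 and Col24a1 varied most between animals among genes at 50 CPM or more. The biological coefficient of variation, the spread between animals beyond counting error, was 0.160 over all genes. It was 0.931 for Sst and 0.831 for Npy, peptides of interneurons, which ran from 0 to 637 CPM and from 4.64 to 371 CPM. Their medians in D1 nuclei without Pdyn were higher, at 407 and 265 CPM. Pooled over animals, Sst had 254 CPM in Pdyn D1 nuclei, and 182, 268 and 249 in astrocyte-, oligodendrocyte- and microglia-marked nuclei. Npy had 123 CPM, against 120, 136 and 104 in the same sets. Neither gene thus stood clearly above its level in glia-marked nuclei. The coefficient was 0.679 for Col24a1, a collagen gene of the position and D1 subtype list, with a median of 199 CPM and 504 CPM in male peer 5. Penk followed at 0.660, with its highest level in female peer 1. Amhr2 (0.707), Kyat3 (0.541) and the mitochondrial ND4L (0.496) were the other genes with a symbol among the 10.

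The share of Pdyn D1 nuclei did not differ between the groups beyond the spread of animals. Of kept nuclei they were 5.39% to 10.1% in female mates (median 7.04%), 4.27% to 8.58% in female peers (6.84%), 1.51% to 9.47% in male mates (6.70%) and 4.07% to 11.1% in male peers (6.66%). The groups overlapped almost whole, with male mate 2 the lowest animal. Its 95% Wilson interval, which covers counting error only, was 1.23% to 1.84%. The means were 7.42% ± 1.62 (SD, n = 11), 6.55% ± 1.46 (n = 8), 6.23% ± 2.21 (n = 11) and 7.07% ± 2.16 (n = 10). Mates and peers differed by 0.0215 percentage points in a two-sided permutation test (p = 0.972). The largest of the 3 differences was that of the pairing difference between the sexes, 1.71 points (permutation p = 0.159, adjusted over 6 share tests 0.579).

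As a share of D1 nuclei they were 46.2% ± 3.57, 48.2% ± 8.14, 42.4% ± 11.7 and 46.0% ± 8.53 in the same order of groups, and 15.9% in male mate 2. Mates stood 2.82 points below peers (difference -2.82, permutation p = 0.290) and females 3.02 points above males (permutation p = 0.266), both with an adjusted p of 0.579. Without male mate 2 these differences were -1.50 (permutation p = 0.516) and 1.70 points (permutation p = 0.478), and at 1000 UMIs -1.21 (permutation p = 0.512) and 0.0684 points (permutation p = 0.971). A share of nuclei with a UMI moves with depth. Over the 40 animals this share and the median UMIs per kept nucleus had a Pearson r of 0.463 (permutation p = 0.00525, adjusted over 5 relations 0.0262) and a Spearman rho of 0.158 (permutation p = 0.330). Without female peer 1 and male mate 2, r was 0.104, so the relation rests on these 2 libraries. At 1000 UMIs each, 31.6% of 22773 D1 nuclei held Pdyn, the group means ran from 30.0% to 31.9%, and r with depth was 0.118 (permutation p = 0.470, rho -0.0292, permutation p = 0.857).

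**Figure D4:**
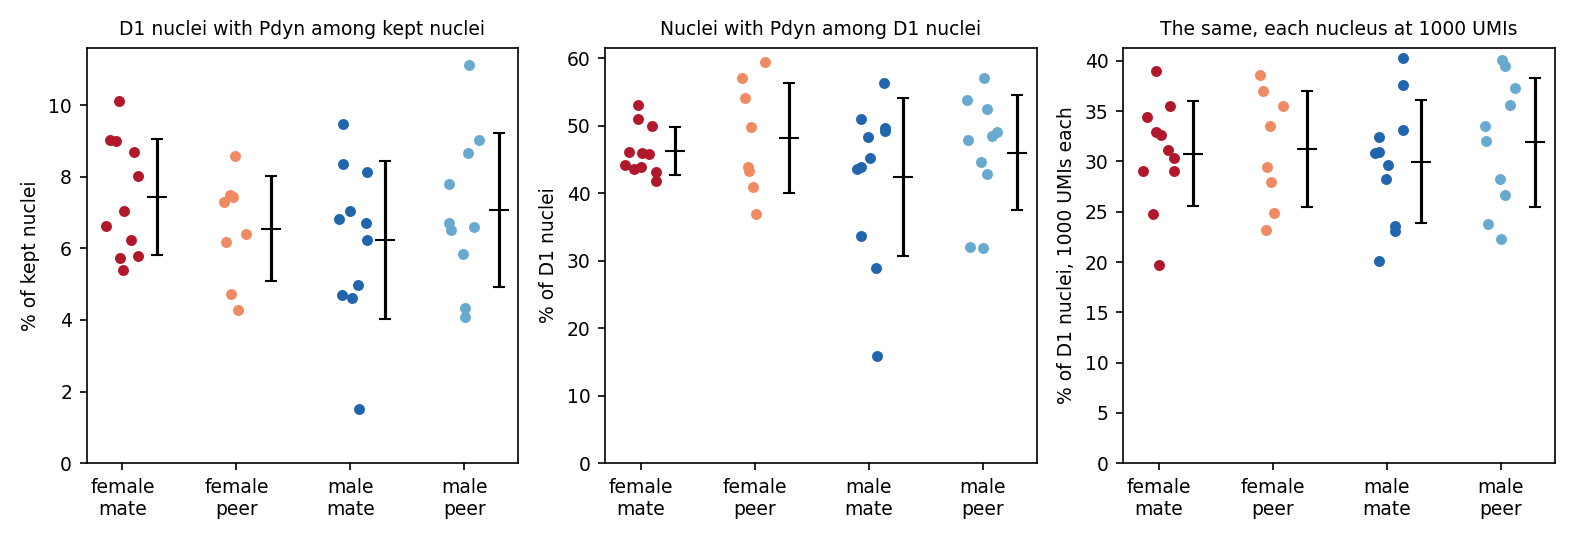
Share of D1 nuclei with Pdyn per animal (points) by group, of kept nuclei, of D1 nuclei and of D1 nuclei reduced to 1000 UMIs each, with the mean and SD beside them. The lowest point in the first 2 panels is male mate 2 (1.51% and 15.9%), and the 4 groups overlap in each panel.

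Across animals, no pair of marker genes in Pdyn D1 nuclei passed the adjusted test. Dlk1 and Tac1 had r = 0.290 (permutation p = 0.0693, adjusted 0.173) and rho = 0.346 (permutation p = 0.0294, adjusted 0.147). Without the 2 animals farthest from the median of Dlk1, r was 0.261 and rho 0.310. Dlk1 and Reln had r = 0.00865 (permutation p = 0.958) and rho = 0.0221 (permutation p = 0.892), and Reln and Tac1 r = 0.136 (permutation p = 0.401) and rho = 0.125 (permutation p = 0.444).

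Pdyn itself was compared over all D1 nuclei, since the rule fixes a floor on it in the Pdyn D1 nuclei. It had 394 to 631 CPM in female mates (median 467), 275 to 657 in female peers (452), 271 to 640 in male mates (479) and 297 to 736 in male peers (483). The groups overlapped over most of their range. The log2 difference of mates from peers was -0.03 (SE 0.11, edgeR adjusted p = 0.993), that of females from males -0.05 (SE 0.11, adjusted p = 0.976).

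No gene was called for pairing in Pdyn D1 nuclei. The quasi-likelihood test of edgeR on UMIs summed per animal, with Benjamini-Hochberg adjustment over 9704 genes, called 0 genes (0.0%). There were 458 at an unadjusted p under 0.05. DESeq2 also called 0, with 409 at that level. The lowest adjusted p was 0.978. In simulated data of the same size, the test recovered 94.5% of 200 genes changed by 1.5-fold and 100% of those changed by 2-fold. The changed genes were drawn from genes of higher counts only, each with the spread usual at its level. Recovery for genes of low counts was not measured. Which animals were partners is not labelled, although neighbouring numbers in the labels carry the same partner type, so animals may depend on one another.

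The 3 genes of lowest p were Ube2q2, Mrps5 and Tent4a. Ube2q2, for a ubiquitin-conjugating enzyme, had mean levels of 42.3 and 42.7 CPM in female and male mates and of 60.0 and 50.7 CPM in female and male peers, a log2 difference of -0.36 (SE 0.09) that turned to 0.0944 at 1000 UMIs. Mrps5, for a mitochondrial ribosomal protein, differed by -0.24 (SE 0.07). Tent4a, for a poly(A) polymerase that extends RNA tails, was at 32.9 and 33.6 CPM in mates and 19.0 and 30.4 CPM in peers, a log2 difference of 0.44 (SE 0.12), with 20 of 22 mates above the mean of the peers. None passed the adjusted test, all with an edgeR adjusted p of 0.978.

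Within the sexes the counts were also 0 of 9704 genes (0.0%) by edgeR. At an unadjusted p under 0.05 females had 577 genes and males 280. DESeq2 called 0 in both, with 510 and 230. The difference of the pairing difference between the sexes gave 0 (0.0%) with 373, and DESeq2 0 with 328. For that contrast the simulated recovery was 31.5% at 1.5-fold and 89.5% at 2-fold. In females the lowest p was that of Ralyl, for an RNA-binding protein, with 88.6 CPM in mates and 129 in peers (log2 difference -0.54, SE 0.12, edgeR adjusted p = 0.433). Aldoa, for the glycolytic enzyme aldolase (8.83 and 17.4 CPM), and Tent4a followed at an adjusted p of 0.802. In males Tfr2, Neurl2 and Rab12 had the lowest p, with log2 differences of 0.92, -0.81 and -0.48 and an edgeR adjusted p of 1.00. For the difference between the sexes, Ralyl (-0.65) and Aldoa (-1.34) were among the genes of lowest p, with an edgeR adjusted p of 1.00.

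Reln was the list gene of lowest p in females. It had 483 to 1238 CPM in female mates (median 695), 282 to 792 in female peers (552), 495 to 863 in male mates (721) and 441 to 1013 in male peers (763). Female peers 1, 4 and 6 lay below the lowest female mate, 4 female mates lay above the highest female peer, and the rest overlapped. The log2 difference of mates from peers was 0.54 (SE 0.17, p = 0.00197, edgeR adjusted p = 0.802) in females and -0.19 (SE 0.16, adjusted p = 1.00) in males. The difference between the sexes was 0.73 (SE 0.23, p = 0.00237, edgeR adjusted p = 1.00). Reln did not pass the adjusted test in any of these contrasts. In all D1 nuclei the female difference was 0.52 (SE 0.18, edgeR adjusted p = 0.766).

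Immediate early genes showed signs in 1 direction in females. Of 14 tested, 0 were called, 14 of the 14 log2 differences of female mates from female peers were above 0 with a median of 0.46, and 5 had an unadjusted p under 0.05. Over all 9704 genes the median was -0.00, 315 of the 577 genes at that level being higher. In males 6 were above and 8 below 0, with a median of -0.01, and over both sexes 13 were above and 1 below, with a median of 0.20. Markers of other cells moved in the same female contrast with 0 called: 3 of 3 interneuron markers tested were below 0 (median -0.67), and 5 of 5 astrocyte (0.26) and 3 of 3 microglia markers (0.39) above. Their part in the differences of the immediate early genes was not tested. Arc had 155 to 446 CPM in female mates (median 273), 74.7 to 342 in female peers (177), 52.9 to 502 in male mates (185) and 107 to 392 in male peers (238). These ranges overlapped. Its log2 difference in females was 0.64 (SE 0.28, edgeR adjusted p = 0.821). Egr4 (0.43, SE 0.17) and Egr2 (0.90, SE 0.35) each had an adjusted p of 0.811, and Nr4a1 (0.60, SE 0.25) one of 0.821. Genes of such a list rise and fall together within an animal, so the count of signs is not a count of independent results.

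**Figure D5:**
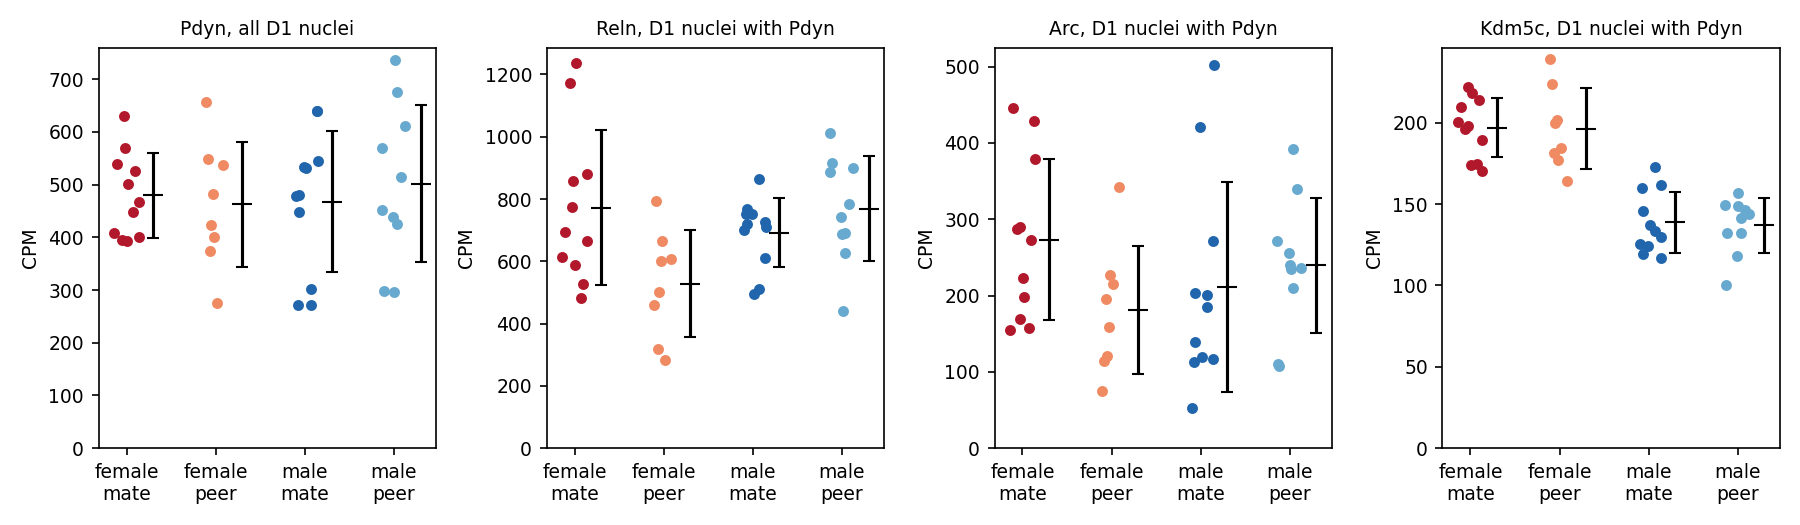
Level per animal (CPM, points) by group, with the mean and SD, of Pdyn in all D1 nuclei and of Reln, Arc and Kdm5c in D1 nuclei with Pdyn. Pdyn, Reln and Arc overlap between groups, and Kdm5c is higher in females, with medians of 198 and 137 CPM.

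The remaining lists gave no call for pairing. Of 148 list genes tested, 0 were called and 6 had an unadjusted p under 0.05 (edgeR): Gja1, Pam, Creb1, Khdrbs3, Gng2 and Nts. Over all 9704 genes 458 (4.72%) had such a p, and the share of list genes was no higher. Tac1 differed by -0.05 (SE 0.10), Dlk1 by 0.28 (SE 0.19), Oprk1 by -0.08 (SE 0.08) and Crhr2 by -0.10 (SE 0.23), and the edgeR adjusted p was 0.978 or higher for these genes. Dlk1 had 39.9 to 146 CPM in female mates, 34.0 to 129 in female peers, 18.7 to 176 in male mates and 49.6 to 151 in male peers, which overlap. OXTR differed by -0.00 (SE 0.39), so its interval is wide. All 5 astrocyte markers tested were above 0 in mates, with a median of 0.24 and Gja1 at 0.32 (SE 0.15, edgeR adjusted p = 0.978). The part of that in other results was not tested.

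Sex gave 2 calls of 9704 genes (0.0206%), by edgeR and by DESeq2, with 480 and 432 genes at an unadjusted p under 0.05. Both encode histone demethylases that are X-linked in mouse. Kdm5c had 164 to 239 CPM in females (median 198) and 100 to 173 in males (137), so the ranges overlapped at their edges. It was higher in females by 0.53 (SE 0.06, edgeR adjusted p = 9.82e-08) on the log2 scale, with 19 of 19 females above the male mean. Kdm6a had 233 to 390 CPM in females (median 328) and 152 to 298 in males (227), and was higher by 0.53 (SE 0.07, edgeR adjusted p = 3.51e-06), with 19 of 19 females above the male mean. Ddx3x, of the same check list, differed by 0.21 (SE 0.09) with an adjusted p of 0.952, and Eif2s3x, its remaining gene, by -0.08 (SE 0.06) with the same adjusted p. In all D1 nuclei the same 2 genes were called of 10825 (0.0185%), and Kdm5c did not overlap there, at 166 CPM or more in females and 162 or less in males.

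Pairing differences were also compared between Pdyn D1 nuclei and D1 nuclei without Pdyn of the same animals, with the animal as a block. Neither edgeR nor DESeq2 called any of 9715 genes (0 and 0, 0.0%), with 502 and 322 at an unadjusted p under 0.05. Simulated recovery was 76.5% at 1.5-fold and 100% at 2-fold. In this simulation every gene had the same spread, and each animal's effect was shared by both kinds of nuclei. Recovery at the spread of each gene was not measured. Hapln4, for a link protein of the matrix around neurons, had the lowest p, at a log2 difference of 0.30 (SE 0.08, edgeR adjusted p = 0.460). Scd2 (0.21) and Ankrd46 (-0.30) had the same adjusted p. Reln differed by -0.01 (SE 0.08) and Tac1 by -0.00 (SE 0.06) between the kinds of nuclei, and Dlk1 by -0.17 (SE 0.21), each with an adjusted p of at least 0.991. All 6 astrocyte markers tested were above 0 in this contrast, with a median of 0.39, 4 at an unadjusted p under 0.05 and 0 called. Summed interneuron markers had medians of 849 and 1647 CPM in the D1 nuclei without Pdyn of female mates and female peers. Their part in the differences was not tested.

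In all D1 nuclei, with or without Pdyn, the count for pairing was 0 of 10825 genes (0.0%) by edgeR and 0 by DESeq2. They gave 597 and 567 genes at an unadjusted p under 0.05. Tent4a had the lowest p there (0.40, SE 0.10, edgeR adjusted p = 0.758), followed by ENSMOCG00000005725 and Xkr6. Within females edgeR called 0 (694 at that unadjusted level) and DESeq2 1, Eml2, at 0.29 on the log2 scale. Within males both called 0, with 281 and 256, and for the difference between the sexes 0, with 384 and 365.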

How the data were processed

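Per the labels, nuclei of each accumbens were isolated separately and sequenced with the 10X Genomics method, 1 library per animal. The authors deposited whole-number UMI counts for each gene in each barcode, made with Cell Ranger (3.1.0), per the submitters' processing notes; build, annotation and barcode selection are not given in the sources used here. All libraries list 19130 genes, of which 3807 have no symbol; 13332 names were found among RefSeq symbols, used for names only. Of 194518 barcodes, 6375 fell below 500 UMIs, all of them in male mate 2, and 2148 had over 5% mitochondrial UMIs. Groups follow the sex and pairing labels, and replicate numbers follow accession order.

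Counts were summed per animal and given as CPM, with no minimum number of nuclei for levels and ratios. Fits took animals with at least 20 nuclei, which left male mate 2 out at 1000 UMIs. Pairing, sex and their interaction were tested in edgeR 4.0.16 (R 4.3.3; quasi-likelihood, TMM, filterByExpr, 1 mean per group, adjusted p under 0.05), with DESeq2 1.42.0 as an alternative, and shares by 100000 permutations of the labels of 1 factor within the other (scipy 1.17.1). The standard error is the log2 difference over the root of the F statistic. Doublets were scored with Scrublet (scanpy 1.11.5) at 0.8% of barcodes per 1000 barcodes and kept. The tests were tested on simulated data with 200 changed genes, drawn from genes of higher counts only, and with animals independent of one another. The text names up to 5 called genes per comparison or the 3 of lowest p, genes of the lists, the 15 highest and 10 lowest ratios past 50 CPM and 90% of animals, and the 10 most variable genes. Exceptions are genes of an alternative's call. The members, lists and tests were chosen with earlier results of these data known. Some genes of the lists were not used here, and a gene that the rule would name is not reported here. Alternatives covered the test, scaling, filters, depth, doublets, other cells' markers, blocks of 10 label numbers and 3 libraries left out.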

Additional observations from a re-analysis of the deposited data

Results flagged for a closer look

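Sets of 4 to 10 animals of a group were searched for an animal far from the others, by the gap to the next animal over the whole range. These are the female and male peers, since the mate groups, with 11 animals each, exceed this size and were not searched. Of 90 sets, 8 held one, where chance gives about 5% of sets. In Pdyn D1 nuclei, Penk stood at 1901 CPM in female peer 1, with the next female peer at 704. Amhr2 was at 12.4 CPM in female peer 5, the next at 66.7, and ND4L at 1171 CPM in female peer 7, the next at 395. Ralyl was at 202 CPM and Neurl2 at 22.0 CPM in female peer 4, with the next female peers at 141 and 13.8. The ratio of Dlk1 in Pdyn D1 nuclei to that in D1 nuclei without Pdyn was 46.4 in male peer 8 and 20.6 in the next male peer, where the denominator rests on few UMIs. In all D1 nuclei, ENSMOCG00000005725 was at 26.5 CPM in male peer 7, the next at 9.58, and Eml2 at 138 CPM in female peer 3, the next at 161.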

How the results depend on the processing

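Of 30 named gene differences under 264 alternatives, 262 kept their direction and their side of the threshold. Only the sex differences of Kdm5c and Kdm6a passed the main test. The others, chosen for low p in these data, had an edgeR adjusted p of 0.433 or higher. That they stayed uncalled thus says little. Eml2 in all D1 nuclei of females passed with DESeq2 (0.29), and Ube2q2 turned to 0.0944 in Pdyn D1 nuclei reduced to 1000 UMIs. Of the counts and shares, 160 values under alternatives kept their direction and side, 9 reversed, 4 moved and 1 was weaker. Without the filter on low counts, 7 genes were called for the pairing difference between the 2 kinds of D1 nuclei (Cck, Slc1a3, Gja1, Nts, Cxcl12, Npy and Apoe). DESeq2 called 5 sex genes and 1 pairing gene of females in all D1 nuclei, where edgeR called 2 and 0. The pairing difference in the share of kept nuclei (0.0215 points, not called) was -0.0821 with at least 2 Pdyn UMIs, -0.269 with at least 1000 UMIs, -0.271 without nuclei holding other cells' markers, -0.0982 at 1000 UMIs and -0.239 at 1% mitochondrial UMIs. Leaving out libraries gave -0.145 to 0.258. The interaction in the share of D1 nuclei (1.68) was -0.963 without male mate 2, 0.0787 without female peer 1 and 3.26 without male peer 1. At 1000 UMIs, 51 genes passed both ratio limits in place of 118. Fewer nuclei entered, and those that lost their Pdyn UMIs joined the D1 nuclei without Pdyn. Nuclei that lost their UMIs of the excluded genes could enter either kind of D1 nucleus. Without the 2 farthest animals, r of the share with depth was 0.104, or -0.132 at 1000 UMIs. The causes were not tested.

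No paired analysis was possible because the labels carry no replicate numbers shared between groups and do not name the partners. This concerns the comparisons between groups, while the 2 kinds of D1 nuclei were compared within animals.

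The standard error of the pairing difference of OXTR was 0.39, against 0.06 for Kdm5c. The part of depth in this was not tested.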
